A study of Mus musculus with 15 samples.

Results

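The 10 genes described here belong to the integrated stress response of the mouse: Atf4, Atf3, Ddit3, Ppp1r15a, Ppp1r15b, Trib3, Asns, Chac1, Sesn2 and Aldh18a1. They were taken as a named list of Atf4 pathway genes, with no measured value in the rule, and are 10 of the 22219 protein-coding gene symbols of GENCODE vM1 on the mm9 build. For each, peaks of Myc, RNA polymerase II (RNAPII) and Miz1 within 1000 bp of an annotated coding transcription start site (TSS) were read from every list, with their rank in that list. RNAPII was also read as gene-body cover, which is the percent of the gene from 1000 bp after its TSS to its end that lay under called peaks.

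In the integrated stress response, kinases that sense amino acid shortage, unfolded protein in the endoplasmic reticulum, double-stranded RNA or lack of heme phosphorylate the translation factor eIF2. General translation falls while the mRNA of Atf4 is translated more, and Atf4, a bZIP transcription factor, binds composite C/EBP-ATF response elements in the promoters of its targets. Those targets include other bZIP factors (Atf3, Ddit3), the subunit that makes the eIF2 phosphatase inducible (Ppp1r15a), and genes of amino acid supply and redox balance. Myc is a bHLH-Zip factor that binds E-boxes as a dimer with Max, and Miz1 (Zbtb17) is a zinc finger factor that also binds Myc.

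ChIP-seq had been done on 15 mouse samples, 1 library in each group, and 20 peak lists from 14 of them were analysed. The fibroblasts are 3T9 cells from E13.5 embryos, of genotype c-mycflox/flox and infected in vitro with a construct for MycER, a Myc fused to an estrogen receptor hormone-binding domain, which 400 nM 4-hydroxytamoxifen (OHT) activates. Myc and RNAPII were profiled without OHT (0 min) and after 10, 20 and 30 min, 2 h and 4 h of OHT, and Miz1 in the same cells without activation. The second Miz1 library came from B cells of the spleen of wild-type C57BL/6 mice of 6 to 8 weeks, enriched with B220 magnetic beads and given no OHT. All fibroblast groups share the floxed c-myc alleles and MycER, the labels name no recombinase, and Myc in these lists cannot be divided into the endogenous protein and MycER. With 1 library per group there is no replicate check on any difference between times or cell types, and no test was made.

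Myc libraries held 28132063 to 33431447 tags and gave 19995 to 27388 peaks. For RNAPII the depth was 15276996 tags at 0 min, 19999678 at 10 min, 36396286 at 20 min, 16274905 at 30 min, 19859793 at 2 h and 16268203 at 4 h, so 0 min, 30 min and 4 h were close in depth and 20 min was far deeper. The Miz1 libraries held 10164509 tags in fibroblasts, with 8310 peaks, and 24237295 in B cells, with 4488 peaks. Of a list of fibroblast markers, 11 of 15 had an RNAPII promoter peak at 0 min (Thy1, Lum, Dcn and Postn did not), against 1 of 11 B cell markers (Ebf1), 2 of 9 macrophage or T cell markers, 0 of 6 epithelial markers and 1 of 5 neuron markers.

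The promoters of the 10 genes are shown by the letters that bear on the pathway and on Myc. The C/EBP-ATF element was searched as TGATGNAA, the E-box as CACGTG, a common E-box variant as CACGCG, the cyclic AMP response element as TGACGTCA and a core of the motif described for Miz1 as ATCGAT, each on both strands from 500 bp before to 100 bp after the TSS. TGATGNAA was found in 7 of the 10 genes (Asns, Atf3, Chac1, Ddit3, Ppp1r15b, Sesn2 and Trib3) and in 7.39% of all 22219 genes. The 8 matches are printed first because they mark the element Atf4 is known to bind. They are followed by the CACGTG of Aldh18a1, which lies under its Myc summits, and the TGACGTCA of Ppp1r15a, the only match to that motif among the 10. Each is read from mm9 along transcription of the gene, with the match or its reverse complement in capitals, and no printed match overlaps another.
Asns (minus strand, chr6:7643215-7643242): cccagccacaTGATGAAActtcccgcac
Atf3 (minus strand, chr1:193007305-193007332): cttctcgcacTTGCATCAccaagtccgc
Atf3 (minus strand, chr1:193007135-193007162): ttaaaaggggTGATGCAAcgcgctccca
Chac1 (plus strand, chr2:119176775-119176802): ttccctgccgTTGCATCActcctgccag
Ddit3 (plus strand, chr10:126727538-126727565): ttgccaaacaTTGCATCAtccccgcccc
Ppp1r15b (plus strand, chr1:135027673-135027700): taggtccggcTGATGCAActcgccgcgt
Sesn2 (minus strand, chr4:132066658-132066685): tgaagtcccgTTTCATCAcgcagcccta
Trib3 (minus strand, chr2:152169765-152169792): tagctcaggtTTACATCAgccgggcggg
Aldh18a1 (minus strand, chr19:40662997-40663022): agggggccgcCACGTGgagcgtgggc
Ppp1r15a (minus strand, chr7:52781633-52781660): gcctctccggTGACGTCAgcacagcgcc
The matches in Asns (26 bp after the TSS) and the second of Atf3 (71 bp after it) lie in the 5′ UTR of those genes. That of Ddit3 lies 279 bp before its TSS, in an intron of the overlapping gene RP24-341K21.6, and the others lie outside annotated transcripts. CACGTG was found in 2 genes (Aldh18a1, 56 bp before its TSS, and Ppp1r15b, 222 bp before), against 12.1% of all genes. CACGCG was found in 6 genes (Asns, Atf4, Chac1, Ddit3, Ppp1r15a and Ppp1r15b), against 16.8%. TGACGTCA was found in 2.67% of all genes, and ATCGAT in 0 of the 10 and 1.95% of all. A match is a description of the letters and not a measured binding site.

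All 10 genes had a Myc promoter peak in every one of the 6 lists, before OHT as after it. Among all genes the share with such a peak was 44.7% at 0 min, 46.8% at 10 min, 47.9% at 20 min, 46.6% at 30 min, 48.9% at 2 h and 46.7% at 4 h, and 43.3% had one at all 6 times. The genes spread over nearly the whole range of Myc enrichment, and the same genes held the ends of the order each time. Aldh18a1, Ppp1r15b and Asns stood in the highest 10% of Myc-bound promoters in every list, and Sesn2 in the lowest 20%. Fold enrichment here is the authors' own value for each peak, and the percentile is its rank among genes with a promoter peak in the same list. Folds from different lists are given side by side and are not a measure of change.

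Among the transcription factors, Ddit3 (Chop, the bZIP factor linked to cell death in prolonged stress) ranked highest by Myc fold from 0 min to 2 h, and Atf4 stood above it at 4 h. The Ddit3 Myc peak had folds of 27.6, 39.9, 35.0, 32.1, 38.5 and 30.8 at 0, 10, 20 and 30 min, 2 h and 4 h, at percentiles 76.3 to 88.1. The summit lay 155 to 182 bp before the Ddit3 TSS in all 6 lists, in an exon of RP24-341K21.6, and the peak also covered that gene's TSS in every list and that of Mbd6 in 5 of the 6, all but 10 min. A Myc peak there belongs to a shared promoter region and cannot be assigned to Ddit3 alone. Atf4 itself had Myc folds of 15.0, 30.6, 25.4, 20.9, 31.9 and 32.5 in that order, at percentiles 59.3 to 79.0. Ranked by p score, Atf4 stood at percentiles 87.3 to 94.0. On that score it was above Ddit3 at 10 min, 30 min and 4 h, level with it at 20 min and 2 h, and below it at 0 min. Its peaks were long for Myc, 4697 to 6690 bp against list medians of 1617 to 1735 bp, and ran over the whole gene in every list. Atf4 is 2357 bp long, so its promoter, transcript and end lay within 1 Myc peak. Atf3, an early bZIP repressor and activator of the stress response, ranked lower, with folds of 12.6, 17.1, 13.8, 12.3, 21.3 and 18.3 at percentiles 27.7 to 49.8.

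The eIF2 phosphatase subunits stood far apart. Ppp1r15b (CReP), the constitutive subunit, had Myc folds of 78.6, 65.7, 77.0, 71.3, 92.3 and 63.4, at percentiles 96.3 to 99.9. At 0 min it ranked 8 among 9929 genes, 1 place above Aldh18a1, and its summit lay between 15 bp before and 4 bp after the TSS in all 6 lists. Ppp1r15a (Gadd34), the stress-induced subunit, had folds of 14.3, 23.1, 21.8, 16.1, 24.9 and 17.8, at percentiles 44.8 to 62.7. In every list the peak of Ppp1r15b thus ranked above that of Ppp1r15a, and the 2 ranges do not overlap. The Ppp1r15a peak also covers the TSS of Plekha4, which lies head to head with it. Trib3, a pseudokinase that restrains Atf4 and Akt, had low folds of 10.1, 9.30, 14.6, 12.2, 16.2 and 9.90, at percentiles 14 to 33.

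The effectors of amino acid and redox metabolism held both ends of the order. Aldh18a1, which makes the first intermediates of proline synthesis from glutamate, had Myc folds of 77.9, 97.0, 100.5, 78.6, 99.6 and 86.1. It ranked 9 at 0 min and between 35 and 97 in the later lists, with percentiles of 99.1 to 99.9. The peak also covered the TSS of Gm16765 in all 6 lists, as that of Sesn2 covered the TSS of Gm12981, so neither can be assigned to 1 gene alone. Asns, asparagine synthetase and a classical Atf4 target, had folds of 46.2, 66.1, 69.9, 51.6, 71.6 and 60.3, at percentiles 93.6 to 97.8. Chac1, which breaks down glutathione, had folds of 26.1, 40.5, 38.8, 26.2, 39.5 and 31.8, at percentiles 71.6 to 86.3. Sesn2, a leucine sensor and inhibitor of mTORC1 signalling, had the lowest fold of the 10 in each of the 6 lists: 6.97, 7.82, 11.4, 9.17, 12.5 and 8.39. Its percentiles by fold were 7.48 to 19.2, and its peaks held 130 to 235 tags against 650 to 926 for Aldh18a1. The lowest place of Sesn2 holds for fold alone. The Trib3 peaks held fewer tags, 95 to 169, and by p score Trib3 stood below Sesn2 in every list but that of 0 min.

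**Figure D1:**
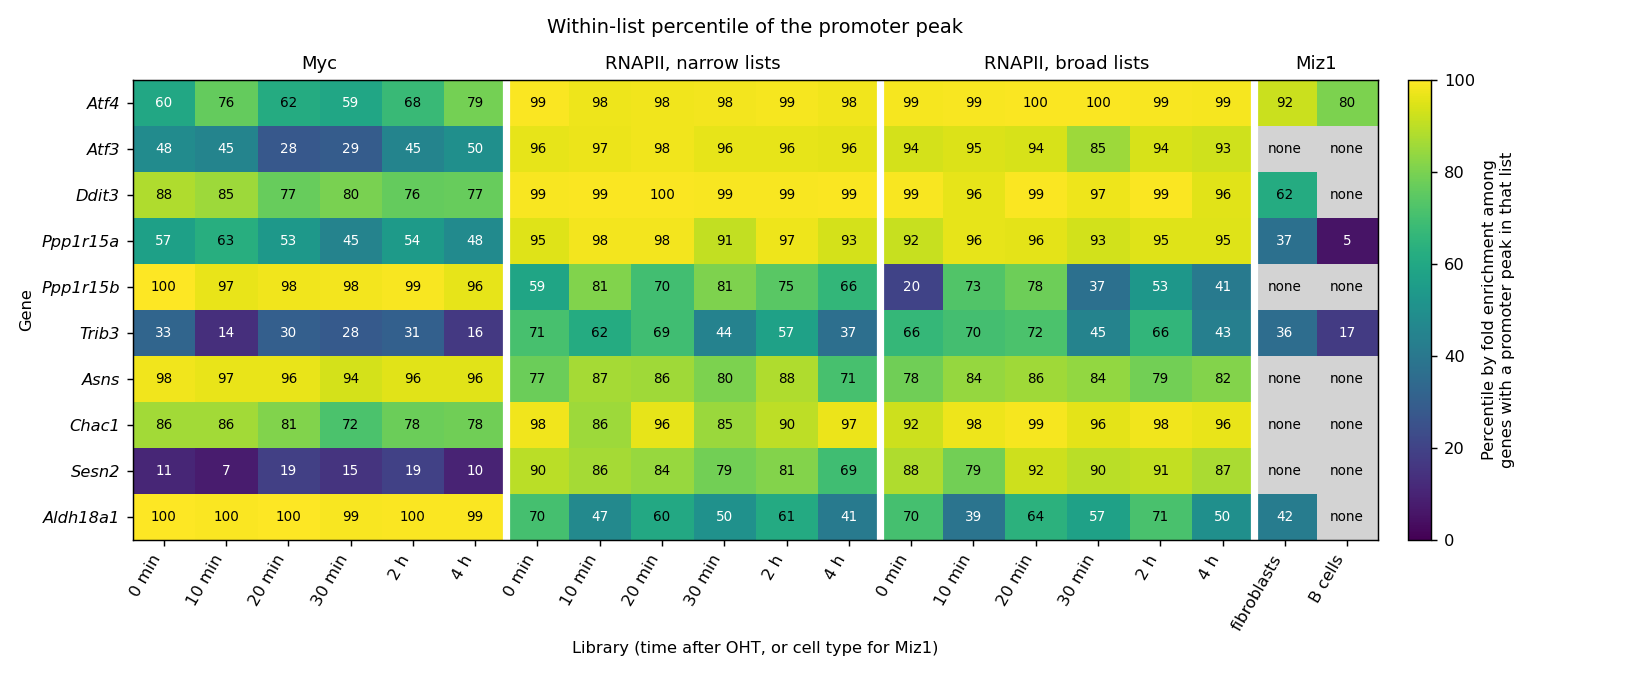
Within-list percentile of the promoter peak of each of the 10 genes (rows) in the 20 lists (columns), by fold enrichment among genes with a promoter peak in that list, rounded to whole percentiles; grey cells marked none had no promoter peak. Aldh18a1, Ppp1r15b and Asns sit near the top for Myc and lower for RNAPII, whereas Atf3 and Sesn2 sit low for Myc and high for RNAPII.

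RNAPII order differed from Myc order. All 10 genes had a narrow RNAPII promoter peak at every time, against 47.5% of all genes at 0 min, 47.3% at 10 min, 48.4% at 20 min, 46.4% at 30 min, 46.3% at 2 h and 46.8% at 4 h. At all 6 times 43.5% of genes had one, and in the broad lists, where the 10 genes again all had one each time, 41.3%. By fold, the 3 stress transcription factors stood in the highest 5% of narrow RNAPII promoter peaks at every time, and other genes of the 10 passed Atf4 or Atf3 in some lists. Ddit3 had narrow folds of 116, 105, 89.7, 116, 95.1 and 128, at percentiles 98.9 to 99.5. Its narrow peak also covered other TSSs in every list, among them that of Mbd6, and cannot be assigned to Ddit3 alone. Atf4 had 127, 81.1, 74.0, 97.5, 90.9 and 93.0, at percentiles 97.6 to 99.3, and 98.7 to 99.5 in the broad lists. Atf3 had 82.0, 77.2, 72.7, 81.4, 66.4 and 74.5, at percentiles 95.9 to 97.7, while its Myc peak lay below percentile 50 in every list. In the broad lists Atf3 stood at percentiles 85.3 to 94.7, and by p score in the narrow lists at 76.1 to 85.7.

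Ppp1r15a had narrow RNAPII folds of 75.9, 85.6, 75.4, 63.0, 71.9 and 62.7, at percentiles 90.7 to 98.2. It stood above Atf4 and Atf3 at 10 and 20 min and above Atf3 at 2 h. Chac1 had 99.0, 48.2, 67.2, 53.3, 47.6 and 80.8, at percentiles 85.1 to 98.0, and stood above Atf3 at 0 min and 4 h. Sesn2, the lowest by Myc fold, had 59.6, 49.4, 48.4, 47.1, 38.0 and 36.7, at percentiles 69.4 to 89.8. The 3 genes highest for Myc stood lower for RNAPII: Asns at percentiles 71.0 to 88.2, Ppp1r15b at 58.7 to 81.0 and Aldh18a1 at 41.2 to 70.5. Trib3 stood at 36.6 to 70.9. Aldh18a1 and Trib3 were the lowest of the 10 in all narrow lists but that of 0 min, where Ppp1r15b was lowest. Between the phosphatase subunits the order by RNAPII fold was thus the reverse of that for Myc, with Ppp1r15a above Ppp1r15b in every narrow and every broad list. In each of those lists the Ppp1r15a peak also covered the TSS of Plekha4, so it cannot be assigned to Ppp1r15a alone. By the peak's p score in the narrow lists, Ppp1r15b stood above Ppp1r15a at 0 min (percentiles 83.5 and 80.3) and at 4 h (85.2 and 76.6). Ranked by that p score, Asns stood at percentiles 16.8 to 23.4 at 10, 20 and 30 min and Aldh18a1 at 8.13 to 22.9 at 10 min, 20 min and 2 h. Those are the lists in which the promoter peak of each gene was a single call of 23603 to 26068 bp.

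Myc summits of most genes stayed close to one position. For Aldh18a1 they lay 35 to 73 bp before the TSS and within 21 bp of the printed CACGTG in every list. Asns had its Myc summit 25 to 107 bp after the TSS, between 1 and 81 bp from the printed TGATGNAA, and Ppp1r15b within 38 bp of its own. In the 100 bp either side of the 0 min Myc summit, TGATGNAA was found in 5 genes (Atf3, Ddit3, Ppp1r15b, Trib3 and Asns) and in 1.57% of the 9929 genes that had a Myc promoter peak. In the 4 h list it was found in 3 (Ppp1r15b, Trib3 and Asns), against 1.38% of genes. CACGTG was found there in 2 genes at 0 min (Ppp1r15a and Aldh18a1) and in 2 at 4 h (Chac1 and Aldh18a1), against 18.9% and 17.5% of genes. The variant CACGCG was found in 3 genes at 0 min (Ddit3, Ppp1r15b and Asns) and in 4 at 4 h (those and Atf4), against 22.3% and 22.4%. Single summits lay apart from the rest: that of Ppp1r15a lay 816 bp after the TSS at 0 min and within 84 bp of it at later times, that of Atf4 lay before the TSS until 2 h and 530 bp after it at 4 h, and that of Sesn2 lay 615 bp after the TSS at 20 min alone. These distances are from the 5′ end of the gene. The Ppp1r15a summit at 0 min lay 70 bp before another coding TSS of that gene, and the Atf4 summit at 4 h lay 213 bp after another of its own. The CACGTG counted for Ppp1r15a at 0 min lies 782 bp after its TSS, in the 5′ UTR, and that for Chac1 at 4 h 521 bp before its TSS. The match lay 34 bp from the 0 min summit of Ppp1r15a and 63 bp from the 4 h summit of Chac1. Both summits lie outside the stretches printed here with those letters:
Ppp1r15a (minus strand, chr7:52780842-52780871): gaggcaggcattCACGTGttgctgctgtga
Chac1 (plus strand, chr2:119176430-119176459): tctccagctgttCACGTGggcaacagtatg

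**Figure D2:**
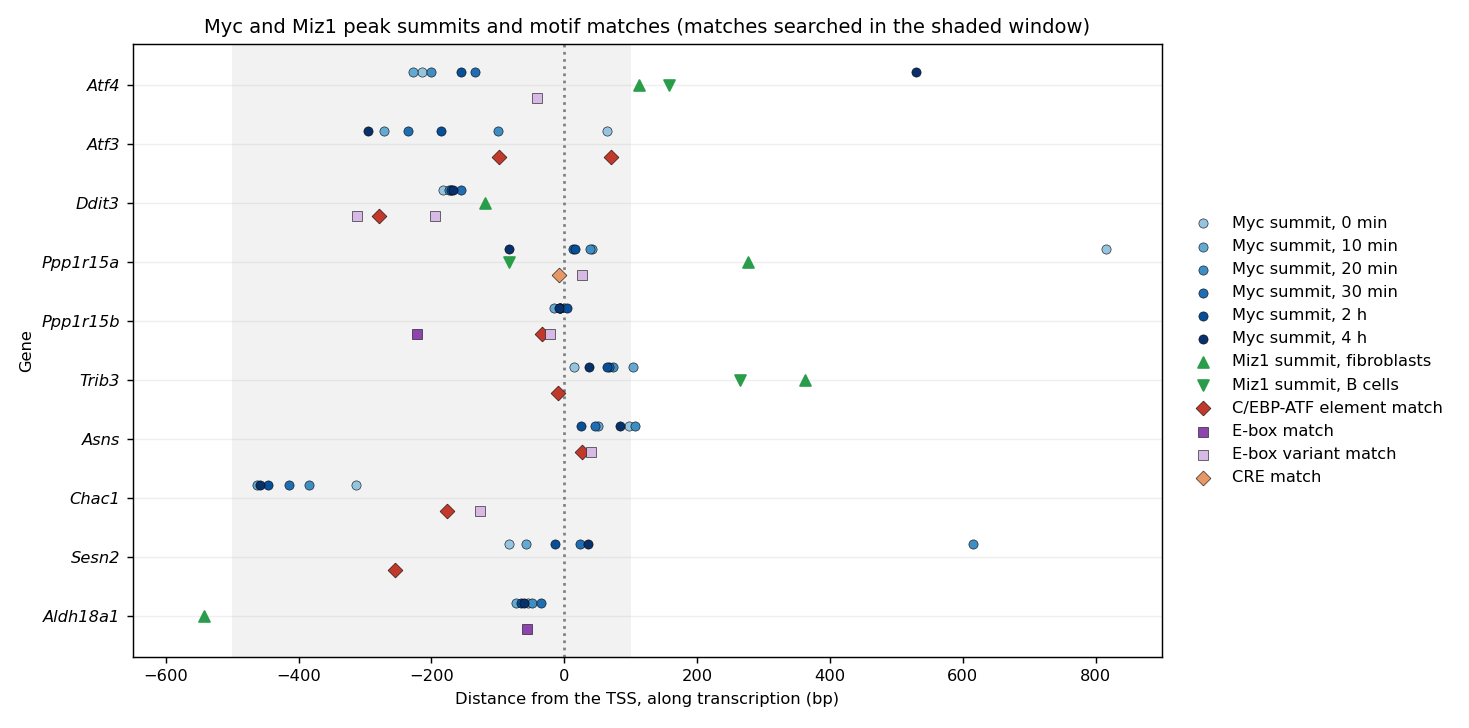
Position of Myc summits (blue circles, darker for later times), Miz1 summits (green triangles) and motif matches (squares and diamonds, searched in the shaded window) for each of the 10 genes, in bp from the TSS along transcription. The C/EBP-ATF element lies among or beside the Myc summits of Asns, Ppp1r15b and Trib3, while the Myc summits of Chac1 lie 314 to 462 bp before the TSS.

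Miz1 was found at the promoters of 5 of the 10 genes in fibroblasts (Atf4, Ddit3, Ppp1r15a, Trib3 and Aldh18a1), where 8.25% of all genes had a promoter peak. In B cells it was found at 3 (Atf4, Ppp1r15a and Trib3), where 5.48% of genes had one. The 3 genes were among the 5, and 2.43% of all genes had a Miz1 promoter peak in both lists. Atf4 carried by far the strongest of these peaks: 29.8-fold in fibroblasts, rank 151 of 1833 genes, and 27.4-fold in B cells, rank 240 of 1217. Both Atf4 summits lay in the 5′ UTR, 113 and 157 bp after the TSS, and the −log10 p of the peaks was 44.9 and 126. The other peaks had 5.01- to 8.36-fold enrichment: Ddit3 8.36, Aldh18a1 6.70, Ppp1r15a 6.43 and Trib3 6.35 in fibroblasts, Trib3 6.26 and Ppp1r15a 5.01 in B cells. Those of Ppp1r15a and Trib3 in B cells stood at percentiles 5.22 and 17.3 of their list, and of the 3 B cell peaks only that of Atf4 was at or above the median fold of all peaks in the list. The Ppp1r15a summit in B cells lay 84 bp before its TSS, in the 5′ UTR of Plekha4, and that of Aldh18a1 in fibroblasts 542 bp before the TSS. Neither ATCGAT nor TGATGNAA was found in the 100 bp either side of any of these summits. Among genes with a Miz1 promoter peak the shares were 2.45% and 1.69% in fibroblasts and 3.37% and 1.40% in B cells. The lists were called at different p cutoffs (1e-02 in fibroblasts, 1e-05 in B cells) and depths. With a p of 1e-05 in both lists the counts were again 5 and 3, while cell type and depth cannot be told apart. In the 100 bp either side of the Miz1 summit, CACGTG was found for Atf4 in B cells, against 5.18% of genes with a Miz1 promoter peak there. TGACGTCA was found for Ppp1r15a in B cells, against 0.74%, and CACGCG for Ddit3 in fibroblasts, against 8.40%. The nearest Miz1 peak to Asns in fibroblasts had its summit 355098 bp before the TSS, and to Chac1 20227 bp before it.

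At every time the narrow gene-body cover of 9 of the 10 genes lay above the median of genes with RNAPII at all 6 times, and that of Atf3 lay below it. Mean narrow cover of the 10 genes was 72.2% at 0 min, 84.0% at 10 min, 89.2% at 20 min, 76.6% at 30 min, 84.6% at 2 h and 64.2% at 4 h. Over the 9419 genes whose promoters carried RNAPII at all 6 times and whose body was at least 500 bp long, the means were 24.3%, 31.4%, 37.1%, 27.6%, 29.1% and 25.7%. The 10 genes are shorter, with a median length of 7634 bp against 22694 bp, and the part of gene length in these covers was not tested. At 0 min 3 of the 10 genes were covered from end to end, against 9.36% of the 9419 genes. At 20 min 7 were, against 16.3%, and at 4 h 3 were, against 10.4%.

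Counts past a difference of 20 percentage points from 0 min show which genes stood farthest from their first value. At 10 min 2 genes were higher by more than that (Ppp1r15a and Asns; 13.45% of the 9419 genes) and 0 lower (1.27%). At 20 min 4 were higher (those 2 with Sesn2 and Aldh18a1; 23.3%) and 0 lower (1.23%). At 30 min 1 was higher (Asns; 9.52%) and 1 lower (Aldh18a1; 3.83%). At 2 h 3 were higher (Ppp1r15a, Asns and Sesn2; 11.2%) and 0 lower (3.11%). At 4 h 1 was higher (Asns; 7.69%) and 2 were lower (Sesn2 and Aldh18a1; 4.89%). Of all 10 genes, 6 had lower cover at 4 h than at 0 min, 1 had higher cover and 3 were at 100% at both times. The mean difference was 4.38 points at 30 min and −8.05 points at 4 h, against 3.34 and 1.41 points over the 9419 genes. Library depth moved with cover, since the deepest library (20 min) had the highest mean and the shallow ones (0 min, 30 min, 4 h) the lowest means, both for the 10 genes and for the 9419. Its part in these values was not tested. Among the 3 libraries of near equal depth, cover of Asns was higher at 30 min and 4 h than at 0 min, and that of Aldh18a1 lower at both.

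Broad lists, which were called by another program version with shorter peaks, gave partly other genes. At 10 min 0 genes were over 20 points higher (4.28%) and 0 lower (0.531%). At 20 min 4 genes were over 20 points higher (Ppp1r15b, Trib3, Asns and Aldh18a1; 11.1%) and 0 lower (0.18%), and of these Asns and Aldh18a1 were also higher in the narrow lists. At 2 h 1 was higher (Trib3; 4.28%) and 0 lower (0.796%). At 30 min 0 were higher (3.41%) and 0 lower (1.22%), and at 4 h 0 were higher (2.88%) and 0 lower (1.40%). The higher cover of Asns at 30 min and 4 h was thus seen in the narrow lists and not in the broad ones. Broad cover at 0 min was 1.20% for Sesn2 and 0 for Aldh18a1. A fall of over 20 points was therefore not possible there, and the broad lists cannot decide on the lower narrow cover of these 2 genes. In narrow lists held to a p of 1e-16, Trib3 and Aldh18a1, not Sesn2, were the genes over 20 points lower at 4 h. Sesn2 cover was then 7.90% at 0 min and 8.91% at 4 h, so a fall of that size was not possible and none was seen.

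**Figure D3:**
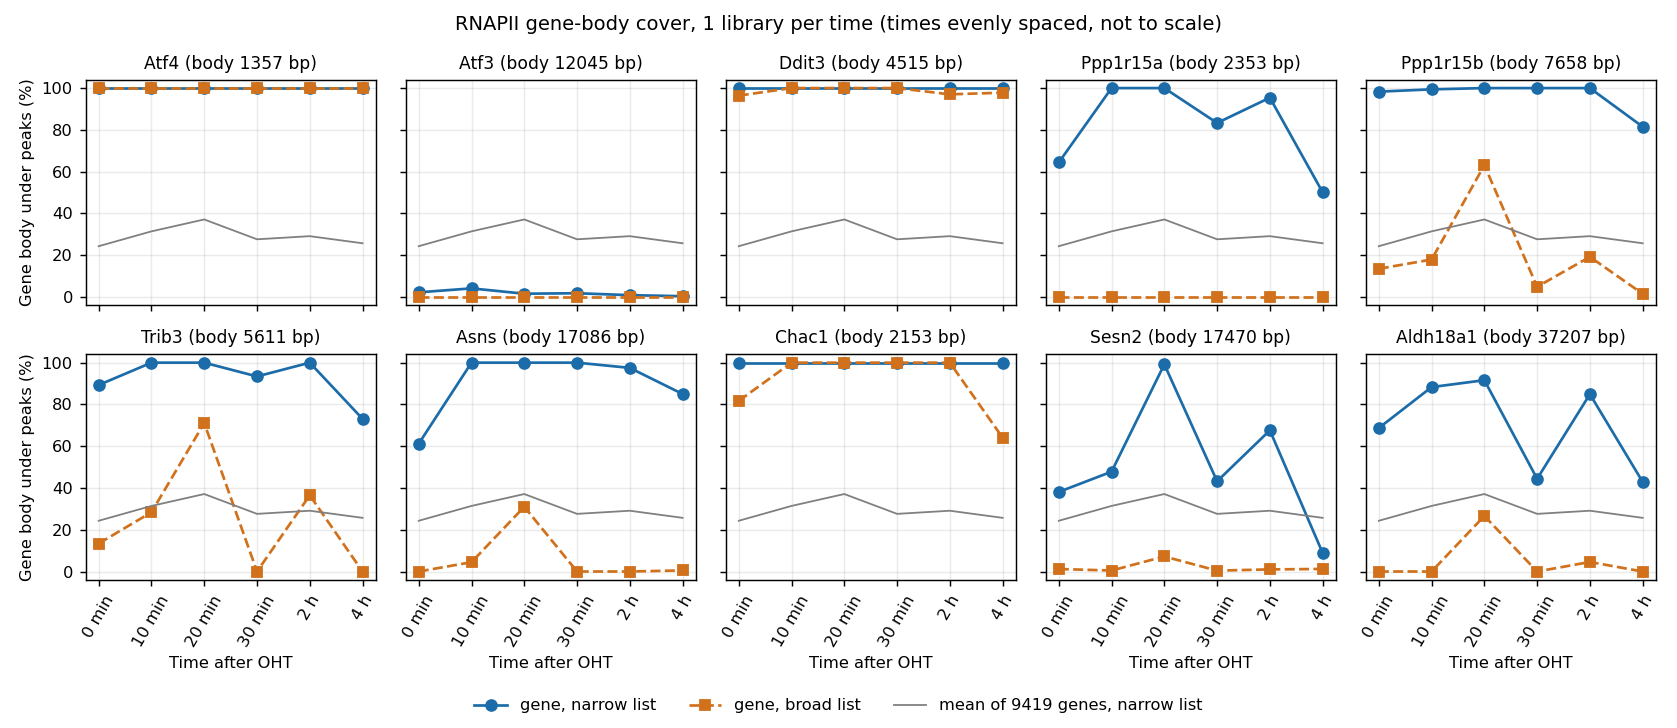
RNAPII gene-body cover in percent at the 6 times for each of the 10 genes, from narrow lists (blue circles) and broad lists (orange squares), 1 library per time; the grey line is the mean narrow cover of 9419 genes. Atf4, Ddit3 and Chac1 stay at 100% in the narrow lists, Atf3 stays under 5%, and Sesn2 spans 8.91% to 99.2%.

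Atf4, Ddit3 and Chac1 had narrow cover of 100% at every time. The Atf4 peak ran 4177 bp past the end of the gene at 0 min and 7574 to 7825 bp past it at all later times, when it also took in the TSS of Rps19bp1. In the broad lists Atf4 was again at 100% at every time and its peak ended 2169 to 3915 bp past the gene. The Ddit3 peak spanned 13286 to 39942 bp and took in Mbd6 and 2 genes of the RP24 clone in every narrow list, and Mars at 20 min, so its cover is that of a gene cluster. Broad cover of Ddit3, in peaks that did not reach Mbd6, was still 96.4% to 100%. Chac1 had broad cover of 81.7% at 0 min, 100% from 10 min to 2 h and 64.1% at 4 h. The 2 ends of the time course were thus the low points for Chac1 in the broad lists.

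Atf3 was the exception. Its narrow cover was 2.21%, 4.10%, 1.55%, 1.77%, 0.855% and 0.357% at 0, 10, 20 and 30 min, 2 h and 4 h, and its broad cover was 0 at every time. Its only peak over the gene ended 1042 to 1493 bp after the TSS, in a gene of 13045 bp, although the peak ranked by fold in the highest 5% of narrow promoter peaks each time. At 20 min, in the deepest library, a separate narrow peak lay past the end of the gene, 13868 to 15436 bp after the TSS. Of the genes in that highest 5% among the 9419, 53 of 455 (11.6%) had cover under 5% at 0 min and 55 of 452 (12.2%) at 4 h. Atf3 was thus not alone in having a high promoter peak and a body without called peaks.

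In the narrow lists the phosphatase genes and Trib3 had their lowest cover at 4 h, and Ppp1r15b and Trib3 were at 89.3% or more at the other times. Ppp1r15a had narrow cover of 64.4%, 100%, 100%, 83.3%, 95.4% and 50.1% in the order of times. The gap between its promoter peak and the peak over its end closed into a single call at 10 and 20 min. Ppp1r15b had 98.3%, 99.4%, 100%, 100%, 100% and 81.5%, and Trib3 had 89.3%, 100%, 100%, 93.4%, 100% and 73.1%. Broad cover gave these 3 genes quite different levels. Ppp1r15a was at 0 throughout, Ppp1r15b at 14%, 17.9%, 63.1%, 4.87%, 19.2% and 1.49%, and Trib3 at 13.4%, 28.4%, 71.1%, 0, 36.5% and 0. For Ppp1r15b and Trib3 the highest broad cover was in the deepest library, 20 min, and the values at 30 min and 4 h, in libraries near 0 min in depth, were below that at 0 min.

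Asns was the only one of the 10 genes with narrow cover over 20 points above 0 min at every later time. It had 61.2% at 0 min, 100% at 10, 20 and 30 min, 97.5% at 2 h and 85.0% at 4 h. At 0 min 4 separate peaks lay over the gene and the promoter peak ended 1880 bp after the TSS. At 10, 20 and 30 min a single peak ran from the promoter to 6282 to 6832 bp past the end of the gene, and at 2 h and 4 h there were 3 peaks. In the broad lists Asns was at 0, 4.46%, 31.0%, 0, 0 and 0.527%. The 2 list types thus differ on Asns at 30 min, with all of the body covered in the narrow list and none in the broad one.

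Sesn2 and Aldh18a1 had narrow cover over 20 points above 0 min at 20 min and over 20 points below it at 4 h. Sesn2 had narrow cover of 38.1%, 47.8%, 99.2%, 43.2%, 67.6% and 8.91%, the widest range of the 10 genes. At 4 h, peaks covered only the start of the gene, up to 2195 bp after the TSS, and its end. Its broad cover was 0.418% to 7.21%. Held to a p of 1e-16, its narrow cover was 7.90% at 0 min and 8.91% at 4 h. The lower cover of Sesn2 at 4 h thus rests on 0 min peaks weaker than that cutoff. Aldh18a1 had narrow cover of 68.7%, 88.3%, 91.6%, 44.4%, 84.9% and 42.9%, over a gene of 38207 bp that was split into 6 peaks at 0 min, 3 at 10 min, 20 min and 2 h, 4 at 30 min and 6 at 4 h. Its broad cover was 26.6% at 20 min, 4.56% at 2 h and 0 at the other times. The 2 genes whose narrow cover was more than 20 points lower at 4 h held both ends of the Myc order. Aldh18a1 had the highest Myc fold of the 10 then, 86.1, and Sesn2 the lowest, 8.39. Asns, the 1 gene more than 20 points higher, had a Myc fold of 60.3.

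**Figure D4:**
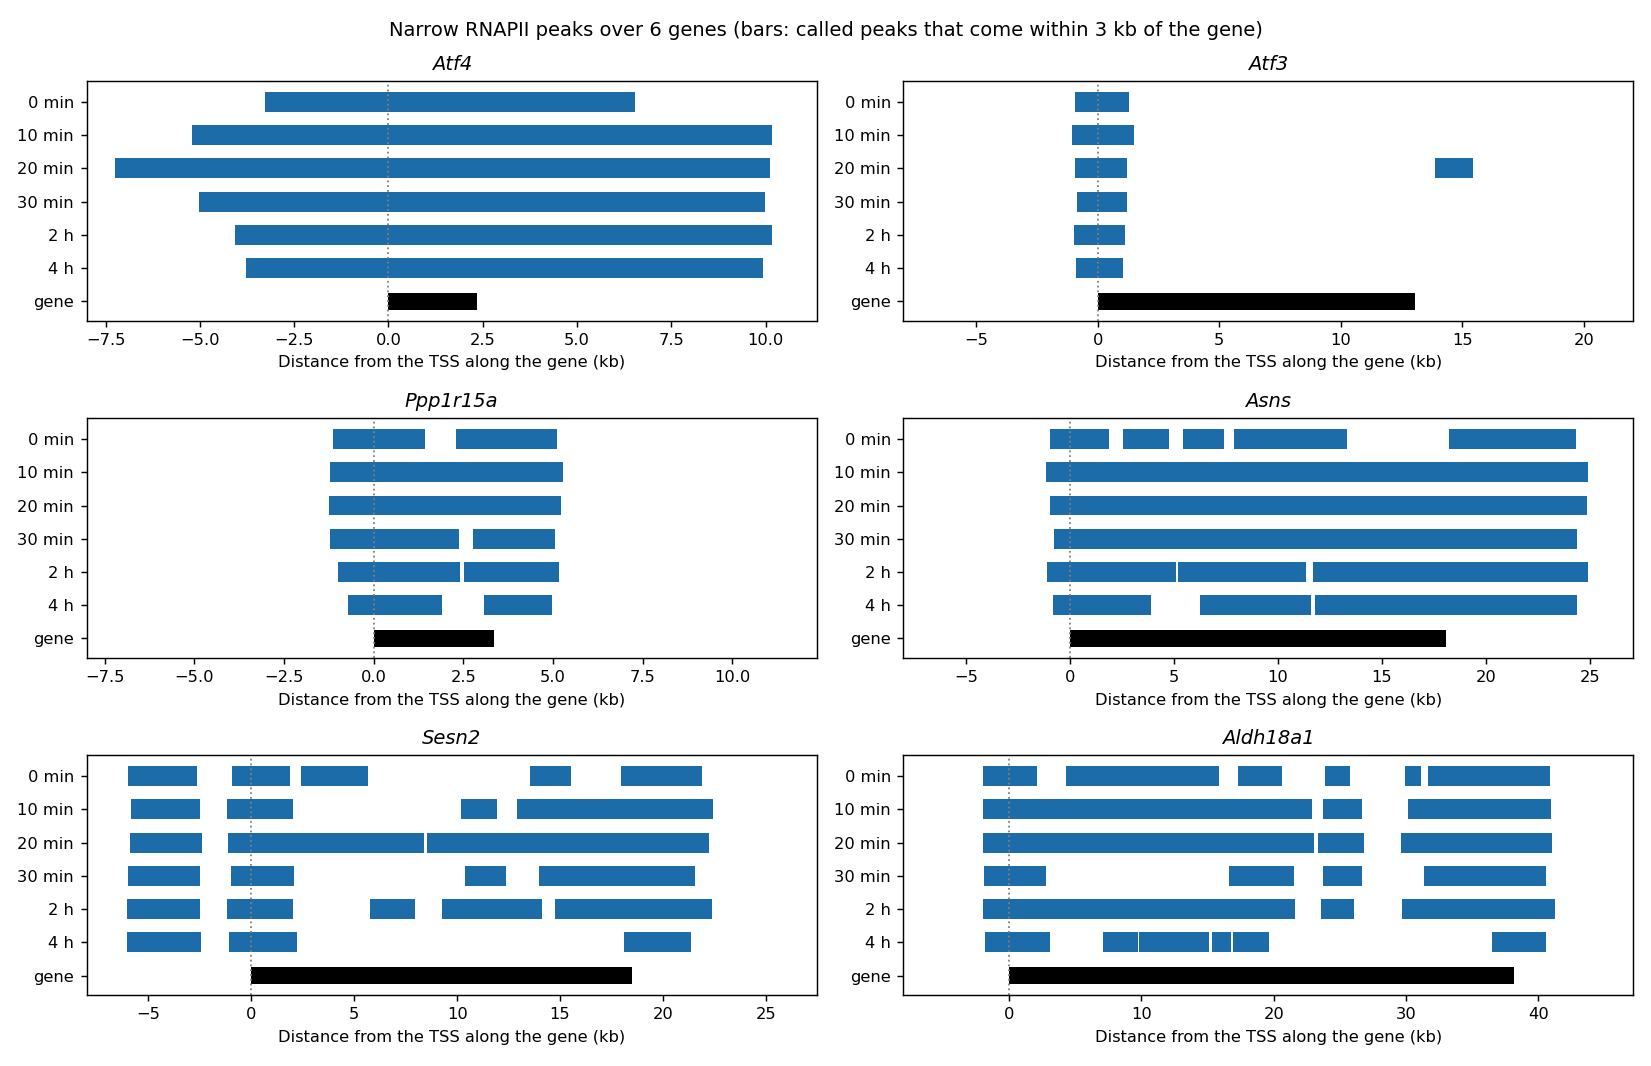
Narrow RNAPII peaks (blue bars) at the 6 times over Atf4, Atf3, Ppp1r15a, Asns, Sesn2 and Aldh18a1, by distance from the TSS in kb along the gene, with the gene as a black bar. Asns is under 4 peaks at 0 min and 1 peak at 10, 20 and 30 min, and Sesn2 is nearly bare of peaks between its ends at 4 h. Within the gene, Atf3 has peaks at its start alone, and at 20 min a separate peak lies past its end.

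Other genes of the pathway were taken from 4 lists of 77 genes in all, none of them among the 10. Myc promoter peaks at 4 h were found at 14 of 14 eIF2 kinases and eIF2 or eIF2B subunits, 8 of 8 partners of Atf4 and other bZIP factors, 35 of 36 other Atf4 targets (all but Gdf15) and 19 of 19 genes of the unfolded protein response outside Atf4. Among all 22219 genes the share with such a peak was 46.7%. Median Myc percentiles of the lists at 4 h were 83.4, 85.7, 87.4 and 62.6, against 77.6 for the 10 genes. Narrow cover at 30 min was over 20 points above 0 min for 5 of 13 eIF2 genes, 2 of 7 bZIP factors, 7 of 32 other targets and 2 of 18 unfolded protein response genes, and lower by that much for 0 in each list. At 4 h, 5, 3, 4 and 2 were higher and 0, 0, 2 and 1 lower. Over the 9419 genes those shares were 9.52% higher and 3.83% lower at 30 min, and 7.69% and 4.89% at 4 h. In the broad lists 0 of 13, 1 of 7, 7 of 32 and 1 of 18 were higher at 30 min and 0, 0, 0 and 1 lower, and at 4 h 0, 1, 4 and 0 were higher and 0, 1, 0 and 1 lower. Over the 9419 genes the broad shares were 3.41% higher and 1.22% lower at 30 min, and 2.88% and 1.40% at 4 h. For the eIF2 genes, a rise of over 20 points at 30 min or 4 h was thus seen in the narrow lists alone. Smaller rises and the other times are outside these counts.

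Among the genes that bring eIF2 into the pathway, Eif2s1, the subunit that is phosphorylated, had narrow cover of 22.8% at 0 min, 93.5% at 30 min and 70.5% at 4 h. Its broad cover was 0, 6.78% and 5.61%. Eif2b1, a subunit of the exchange factor eIF2B, had narrow cover of 55.5%, 100% and 92.4% at those times, and Impact, an inhibitor of the kinase Gcn2, had 8.36%, 61.0% and 29.4%. By Myc rank at 4 h Eif2s3x led that list at percentile 97.1, followed by Eif2b5 at 92.7 and Eif2b3 at 92.6. Of the bZIP factors Nfe2l2 (Nrf2, the regulator of antioxidant genes) stood at Myc percentile 92.7 at 4 h. Narrow cover of Nfe2l2 was at 22.6% at 0 min, then at 100% at 30 min, and at 50.2% at 4 h. Cebpg, which dimerizes with Atf4, had narrow cover of 56.9%, 96.6% and 81.5% and a low Myc percentile of 20.8. Cebpa (92.3) and Atf5 (89.7) were also high in Myc rank at 4 h.

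Other Atf4 targets held the highest Myc ranks of the 4 lists. Mthfd2, a mitochondrial enzyme of folate metabolism, stood at percentile 99.4 at 4 h, and the arginine transporter Slc7a1 and the tRNA exporter Xpot both at 99.1. Slc7a1 had no narrow RNAPII promoter peak at 30 min and is outside the counts of cover, with narrow cover of 61.6%, 10.3% and 60.9% at 0 min, 30 min and 4 h. In the broad lists it had 1.62%, 53.9% and 16.8%, so the direction at 30 min differed between the list types. The amino acid transporter Slc1a5 had narrow cover of 20.5%, 99.4% and 93.2% at those times. Its relative Slc1a4 had 39.2%, 73.1% and 23.5%, and Bbc3 (Puma, an activator of apoptosis) 63.2%, 96.0% and 55.6%. Of the unfolded protein response genes, the chaperone Hyou1 had narrow cover of 11.5%, 94.2% and 32.2%, and Sdf2l1 7.62%, 44.9% and 36.7%. Broad cover of Hyou1 was 0, 0.547% and 0, and that of Sdf2l1 was 0 at all 3 times. No gene named here for its higher narrow cover, from Eif2s1 to Sdf2l1, was over 20 points above 0 min in the broad lists at 30 min or 4 h. Atf6 (90.0), Hyou1 (88.5) and Pdia4 (80.9) had the highest Myc percentiles of that list.

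The 2 genes of the 10 with the widest narrow cover range were Sesn2 and Ppp1r15a. The protein-coding genes whose 12 covers (6 narrow, 6 broad) lay nearest to those of Sesn2, by root mean square distance over 19465 genes, were Cdc16 (7.06 points), Stt3a (7.41), Atp5j (7.42), Fam132a (7.57) and Ski (7.73). Cdc16 had narrow cover of 36.1%, 53.5%, 90.9%, 25.2%, 77.6% and 12%. Nearest to Ppp1r15a were Utp23 (5.88), Psmc6 (7.34), Smarce1 (7.50), Cand1 (7.96) and Snrpe (8.12). Utp23 had narrow cover of 76.4%, 92.2%, 94.7%, 84.3%, 100% and 37.5%, so it was, like Ppp1r15a, highest between 10 min and 2 h and lowest at 4 h. The nearest genes share the same 12 libraries, and with them depth and calling.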

How the data were processed

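The files are peak lists. The submitters' processing notes name BWA 0.6.2-r126 as the aligner and mm9 as the genome. Myc and narrow RNAPII peaks were called with MACS 1.4.2 at a p cutoff of 1e-08, keeping 1 tag per position; broad RNAPII peaks with MACS 2.0.9 at the same cutoff, keeping 2; and Miz1 peaks with MACS 2.0.9 at 1e-02 (fibroblasts) and 1e-05 (B cells), all per the file headers. No list pools libraries, and the control tags of the Miz1 lists outnumbered the ChIP tags 1.59 (fibroblasts) and 1.35 (B cells) times. The MACS 1.4.2 lists deposited by the authors hold tag counts, a score of −10 log10 p (with a ceiling at which many peaks tie), a fold enrichment ratio and a false discovery rate in percent. The MACS 2.0.9 lists deposited by the authors hold the pileup signal, −log10 p, a fold ratio and −log10 q. None of these is comparable between lists, so they were used to rank peaks within a list.

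Computed here with Python 3.11.15, numpy 2.4.6, pandas 2.3.3 and pysam 0.24.0: a promoter peak is the peak of highest fold that overlaps, by at least 1 bp, the 1000 bp either side of any coding TSS of the symbol in GENCODE vM1. Percentiles are over genes with a promoter peak. Gene-body cover excludes the first 1000 bp and needs a body of at least 500 bp. Both functions were tested on simulated peaks. The symbols of all 4 wider lists matched the annotation (77 of 77). Genes named from them are the 3 of highest Myc percentile at 4 h and up to 3 with the largest differences over 20 points, in each direction, in narrow cover between 0 and 30 min. The 10 genes, the lists and the alternatives were chosen with earlier results of these data known. The 2 peaks that ran past a chromosome end were kept. Input signal was not analysed here.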

Additional observations from a re-analysis of the deposited data

How the results depend on the processing

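Of 129 alternative values for 21 results, 97 stayed within 1.5 times the count, or at the same value, 31 moved and 1 turned direction; the cause was not tested. All counts of Myc and RNAPII promoters and of Miz1 promoters in fibroblasts stayed within that range under other windows, overlaps, TSS sets, cutoffs and list lengths, and keeping peaks at or above the median fold left 1 of the 3 genes with Miz1 in B cells. The mean difference in narrow cover at 10 min, 11.7 points, was 4.49 in the broad lists, 10.2 over the whole gene, 11.0 with equal numbers of peaks, 17.4 at a p of 1e-16 and 13.0 for genes of at least 3000 bp. That at 30 min, 4.38 points, was −0.0975 in the broad lists, 2.09 with the body starting at 2000 bp, 3.56 over the whole gene, 3.54 with equal numbers of peaks, 6.62 at a p of 1e-16 and 4.86 for genes of at least 3000 bp. That at 4 h, −8.05 points, was in the same order −4.12, −14.7, −7.07, −7.74, −3.98 and −8.94. The settings with the body starting at 2000 bp and with genes of at least 3000 bp held 9 of the 10 genes. With the body starting at 2000 bp, Ppp1r15a had 79.2% at 0 min and 19.5% at 4 h. It was then over 20 points lower at 4 h, with Sesn2 and Aldh18a1. Genes over 20 points higher numbered 0 in the broad lists at 10 min, 30 min and 4 h, and at a p of 1e-16 numbered 4 at 10 min and 2 at 30 min; genes lower by that much numbered 0 in the broad lists at 30 min and 4 h. At a p of 1e-16 Trib3 and Aldh18a1, not Sesn2, were over 20 points lower at 4 h. Sesn2 cover was 7.90% at 0 min in that setting, so it could not fall by that much. Genes with CACGTG at the Myc summit numbered 4 within 250 bp, 5 in the whole peak and 5 with CACGCG counted too at 0 min, and 5 in the whole peak and 6 with CACGCG at 4 h. Ranked by p score, the median percentile at 4 h was 82.2 for Myc and 77.1 for RNAPII, against 77.6 and 82.2 by fold. No paired analysis was possible because each group holds 1 library, numbered 1 in accession order, and for the same reason no library could be left out of a group. Depth limits cover: a body without called peaks may hold RNAPII below the cutoff.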

Other observations

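Myc peaks inside the genes but away from their promoters were rare among the 10. They were called at 2 h alone, in the list with the most Myc peaks: in Atf3, with a 6.76-fold peak 10743 bp from the TSS, and in Ppp1r15b, with a 5.53-fold peak 2609 bp from it. Both folds are well below those of the promoter peaks of the same genes in that list, 21.3 and 92.3. None of the other 8 genes had such a peak at any of the 6 times.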
